A study of Mus musculus with 24 samples.

Results

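The genes described here are 10 members of purinergic and adenosine signalling: the nucleotide receptors P2rx7, P2rx4, P2ry2, P2ry6 and P2ry12, the adenosine receptors Adora2a and Adora2b, and the enzymes Entpd1, Nt5e and Ada. They are a list of gene symbols taken up with earlier results of these data known, and all 10 are present among the 54838 genes of the deposited table. Of the 10, 9 passed the low-count filter and were among the 13116 genes tested. Nt5e did not pass, with 1 count in 1 of 24 libraries.

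Extracellular ATP and related nucleotides are released by stressed or damaged cells and act on surrounding cells through ion channels of the P2X family and G-protein-coupled receptors of the P2Y family. Enzymes on the cell surface then strip phosphates from ATP to yield adenosine, which acts on its own receptors and is removed by deamination or uptake. Microglia, the resident macrophages of the brain, are known for using these receptors to sense injury, to move their processes, to engulf debris and to adjust the release of cytokines.

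SIM-A9 is a line of cultured mouse microglia, and its poly-A RNA was read in 24 libraries, 3 in each of 8 groups. All cells had been moved to 270 uL of serum-free DMEM/F12 beforehand, and in every treated group 30 uL of a 10-fold concentrated sample was added 2 h before RNA extraction. The control group is labelled untreated, so in comparisons with control an agent and the addition itself cannot be told apart. The labels give no doses. The 7 agents were LPS (bacterial lipopolysaccharide, a ligand of Toll-like receptor signalling), (GT)6 SWCNT (single-walled carbon nanotubes carrying a short GT-repeat DNA), COOH SWCNT (carboxylated nanotubes), the calcium dye Fura-2, the voltage dyes DiBASC2 and Di-2-ANEPEQ, whose spellings vary between labels, and AAV, an adeno-associated virus with no further description. The labels do not say that replicates were separate cultures, so p-values measure the spread between these libraries, which may be technical. A cell line is a single cultured population, and the index numbers of the libraries run in blocks by group, so library order and group cannot be told apart.

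Libraries held 17364272 to 29259221 counts, and the biological coefficient of variation was 4.12%. Levels are given as CPM, counts scaled to a common library total with TMM factors. Adjusted p-values are from edgeR's quasi-likelihood test with Benjamini-Hochberg adjustment over all 13116 genes, a gene is called at an adjusted p under 0.05, and ± after a log2 fold change is its SE. Markers of the labelled cell type were present: 14 microglia and macrophage genes summed to 1848 to 2090 CPM, with Csf1r at 507 and Tyrobp at 456 CPM in control. Tmem119 was low at 4.13 CPM, and Sall1 and Siglech, markers of microglia in the brain, had at most 2 and 1 counts in any library. Summed markers of astrocytes, neurons, fibroblasts and T cells stayed at or below 1.10 CPM. Oligodendrocyte markers summed to 3.51 to 5.80 CPM, mostly Mbp (4.13 CPM in control), with Mog at 0. The 4 endothelial markers summed to 127.6 to 137.7 CPM in control to 90.8 to 101.8 CPM in LPS and to 102.0 to 108.6 CPM in (GT)6 SWCNT, nearly all of it Kdr, while Cldn5 was at 0 and Pecam1 and Cdh5 reached at most 9 counts. The part of Kdr-expressing cells in the results was not tested. In bulk RNA, fewer cells of a type and less RNA per cell cannot be told apart.

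RefSeq promoter windows (build GRCm38.p6, 250 bases before to 50 after each start) were given for 8 of the 10 genes, in 11 windows. Adora2a and P2ry6 had no window. The stretches before the start that hold no exon are shown for Adora2b and P2ry2, whose levels changed in the most treatments among these genes, and for P2rx7 and P2rx4, which lie beside each other and differ in their response. P2ry2 and P2rx7 each have more than 1 window, and the most upstream one is shown. The P2ry2 stretch lies inside the annotated span of the gene, whose 5′ end is at base 101012866. Each sequence runs 5′ to 3′ on the gene's strand, and capitals mark the motif letters found.
Adora2b (chr11:62248734-62248983, plus strand): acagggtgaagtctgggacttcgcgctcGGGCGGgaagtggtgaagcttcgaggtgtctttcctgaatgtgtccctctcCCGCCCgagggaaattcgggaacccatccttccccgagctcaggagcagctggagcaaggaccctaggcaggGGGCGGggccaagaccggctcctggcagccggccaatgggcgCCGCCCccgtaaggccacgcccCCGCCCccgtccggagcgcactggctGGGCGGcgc
P2ry2 (chr7:101012054-101012303, minus strand): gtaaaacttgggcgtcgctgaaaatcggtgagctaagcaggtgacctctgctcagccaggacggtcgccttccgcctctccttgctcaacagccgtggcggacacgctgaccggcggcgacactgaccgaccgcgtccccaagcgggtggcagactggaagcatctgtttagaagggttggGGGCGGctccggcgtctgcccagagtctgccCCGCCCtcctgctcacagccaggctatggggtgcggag
P2rx7 (chr5:122643677-122643910, plus strand): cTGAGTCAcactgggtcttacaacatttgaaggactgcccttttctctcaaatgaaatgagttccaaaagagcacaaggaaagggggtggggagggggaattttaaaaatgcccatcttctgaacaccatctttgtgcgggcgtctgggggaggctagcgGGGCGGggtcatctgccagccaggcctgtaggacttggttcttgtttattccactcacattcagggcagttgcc
P2rx4 (chr5:122707294-122707543, plus strand): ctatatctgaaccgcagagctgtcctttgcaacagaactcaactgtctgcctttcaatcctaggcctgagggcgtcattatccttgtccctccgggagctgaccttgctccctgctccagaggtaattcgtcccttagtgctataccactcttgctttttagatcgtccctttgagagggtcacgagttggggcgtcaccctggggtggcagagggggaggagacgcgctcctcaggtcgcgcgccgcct
The 6 motifs searched on both strands were the GC box GGGCGG, the PU.1 core GAGGAA, the HIF core ACGTG, the AP-1 site TGANTCA, the cAMP response element TGACGTCA and the NF-kB site by name. The Adora2b window held 6 GC boxes and none of the other letters. The P2ry2 window held 4 GC boxes, 2 of them after the start, and the HIF letters on both strands after the start. The P2rx7 window held 1 AP-1 match at the far 5′ end and 2 GC boxes, all before the start, and 1 PU.1 match after it. The GC box nearest the start lies in annotated exon bases and is not in the printed stretch. The window of P2rx4 held 1 GC box after the start. Among all 32851 windows, 35.7% held a GC box, 28.3% a PU.1 core, 19.6% the HIF letters, 7.81% an AP-1 site, 8.46% an NF-kB site and 1.79% a cAMP response element. A match describes letters only.

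After LPS, the adenosine receptors Adora2a and Adora2b and the nucleotide receptor P2ry2 rose, and P2rx7 and P2ry6 fell. That is 5 of the 9 tested genes, where 28.3% of all tested genes were called. The median absolute log2 fold change was 0.57 over the 9 genes and 0.14 over all tested genes. With (GT)6 SWCNT 4 of 9 were called, Adora2b and P2ry2 higher and P2rx7 and P2ry6 lower, beside 20.4% of all genes. With COOH SWCNT 3 of 9 were called, Adora2b and P2ry2 higher and P2rx7 lower, beside 20.0% of all genes. The median absolute log2 fold changes were 0.33 and 0.18 over the 9 genes, against 0.12 and 0.12 over all tested genes.

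The dyes and AAV gave few calls, and each was lower than control. With DiBASC2, Adora2b and P2ry2 were lower, 2 of 9, where 5.47% of all genes were called and 3.64% were called lower. With AAV, Adora2b was lower, 1 of 9, where 5.00% of all genes were called and 3.16% were called lower. With Fura-2 and Di-2-ANEPEQ none of the 9 was called by edgeR or by DESeq2, beside 0.252% and 3.08% of all genes, and 1 gene in each, Adora2b, had an unadjusted p under 0.05. P2rx4, P2ry12, Entpd1 and Ada were called in none of the 7 comparisons with control.

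**Figure D1:**
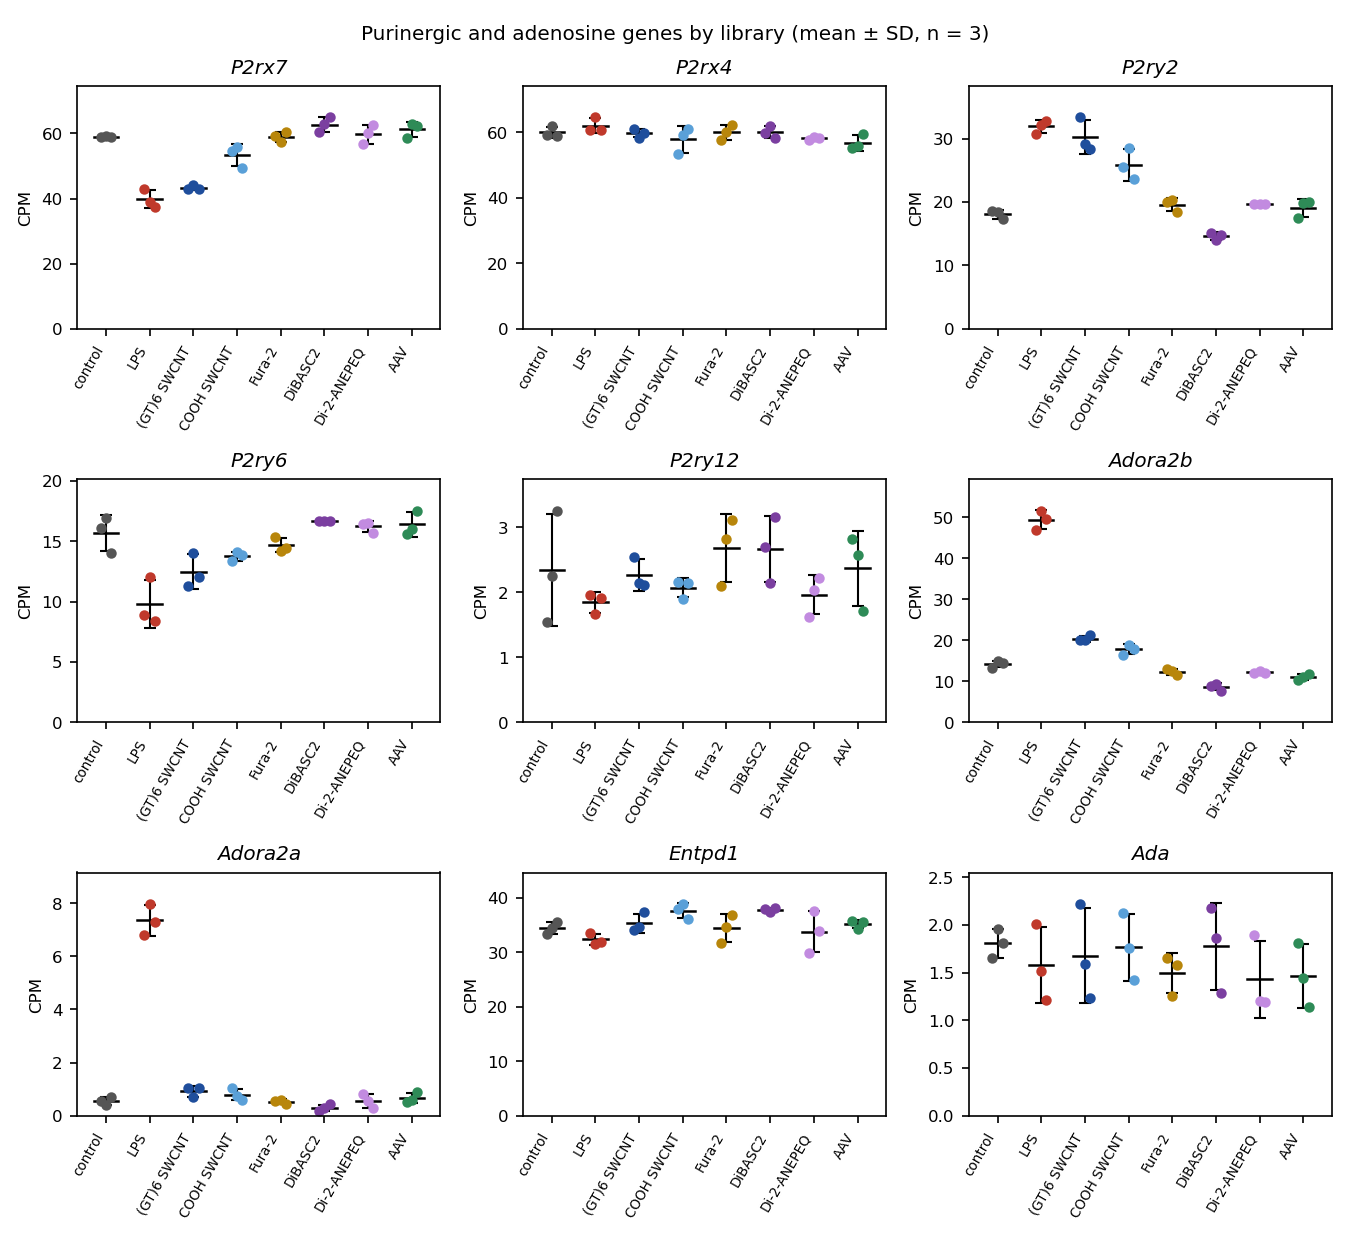
CPM of each gene (vertical axes, starting at 0) in each library, with the 8 groups along the horizontal axes and the mean and SD as lines. Adora2b runs from LPS at 46.95, 51.6 and 49.6 CPM down to DiBASC2 at 8.85, 9.40 and 7.70. On the scale of log2(CPM + 0.5), not that of the axes, P2rx4 has the narrowest spread of group means.

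P2rx7 (ENSMUSG00000029468.17, chr5:122643911-122691432, plus strand, GRCm38) encodes an ATP-gated cation channel that opens at high ATP and is known for triggering inflammasome activation. Its level was 58.96, 59.2 and 58.8 CPM in the control libraries, 42.8, 38.9 and 37.4 after LPS, 42.9, 44.1 and 42.8 with (GT)6 SWCNT and 54.7, 55.8 and 49.5 with COOH SWCNT. Every library of these 3 treatments lay below every control library, and the highest LPS library was level with the lowest (GT)6 SWCNT library. Against control it fell by 0.57 ± 0.05 on the log2 scale after LPS (adjusted p = 4.59e-11) and by 0.45 ± 0.05 with (GT)6 SWCNT (adjusted p = 2.29e-08). With COOH SWCNT the log2 fold change was -0.15 ± 0.05 (adjusted p = 0.0401), and this call was lost in 5 of 6 fits that left out a library, with an adjusted p of 0.347 and a change of -0.08 without COOH SWCNT replicate 3. It was also lost with upper-quartile scaling (0.0569), with no low-count filter (0.0804) and in a fit of the 2 groups alone (0.0515). In the Fura-2, Di-2-ANEPEQ and AAV groups it was 56.7 to 62.9 CPM, and with DiBASC2 60.4, 62.8 and 65, with no call.

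P2rx4 (ENSMUSG00000029470.15, chr5:122707544-122729738, plus strand) encodes another ATP-gated channel and starts 16111 bases beyond the end of P2rx7 on the same strand. Its level was 59.3, 61.96 and 58.8 CPM in control and 60.8, 64.7 and 60.6 after LPS, with (GT)6 SWCNT 60.98, 58.4 and 59.9 and with COOH SWCNT 53.4, 59.2 and 61.1. The groups overlapped, and the log2 fold change after LPS was 0.05 ± 0.05 (adjusted p = 0.556), with an unadjusted 95% interval of -0.05 to 0.15. The spread of its 8 group means of log2(CPM + 0.5) was 0.12, the narrowest of the 9 genes. P2rx7 spanned 0.65 on the same scale.

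P2ry2 (ENSMUSG00000032860.5, chr7:100996568-101012866, minus strand) encodes a receptor for ATP and UTP that raises cytosolic calcium. Its level was 18.5, 18.4 and 17.2 CPM in control, 30.8, 32.1 and 32.8 after LPS, 33.4, 29.1 and 28.4 with (GT)6 SWCNT and 25.5, 28.6 and 23.6 with COOH SWCNT. All 9 of these treated libraries were above all 3 control libraries. The log2 fold change was 0.82 ± 0.07 (adjusted p = 1.29e-11) after LPS, a 1.77-fold rise, 0.75 ± 0.07 (adjusted p = 2.7e-10) with (GT)6 SWCNT and 0.51 ± 0.07 (adjusted p = 2.25e-06) with COOH SWCNT. DiBASC2 gave 15.1, 13.9 and 14.8 CPM, below every control library, with a log2 fold change of -0.31 ± 0.08 (adjusted p = 0.0141). That call was lost without control replicate 1 (adjusted p = 0.0807), control replicate 2 (0.0706) or DiBASC2 replicate 2 (0.0711). The Fura-2, Di-2-ANEPEQ and AAV libraries held 17.5 to 20.3 CPM and overlapped one another. Every Di-2-ANEPEQ library lay above every control library, with no call (log2 fold change 0.12 ± 0.08, adjusted p = 0.431).

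P2ry6 (ENSMUSG00000048779.5, chr7:100937630-100974649, minus strand) encodes a UDP receptor known in microglia for promoting phagocytosis, and starts 21918 bases beyond the end of P2ry2 on the same strand. Its level was 16.1, 16.9 and 14.04 CPM in control and 8.91, 12.1 and 8.42 after LPS, and every LPS library was below every control library. It fell by 0.68 ± 0.10 on the log2 scale after LPS (adjusted p = 9.6e-07). With (GT)6 SWCNT it was 11.3, 14.1 and 12.1 CPM, and the highest of these libraries overlapped the lowest of control. Its log2 fold change there was -0.33 ± 0.10 (adjusted p = 0.00972), and the call was lost without control replicate 2 (adjusted p = 0.11) or (GT)6 SWCNT replicate 1 (0.124). COOH SWCNT gave 13.4, 14.1 and 13.8 CPM, overlapping control, with a log2 fold change of -0.20 ± 0.09 (adjusted p = 0.144).

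P2ry12 (ENSMUSG00000036353.13, chr3:59216272-59262871, minus strand) encodes an ADP receptor that steers microglial processes and is widely used as a marker of homeostatic microglia. It was low in every group, at 1.54 to 3.26 CPM over all libraries, with 1.54, 2.26 and 3.26 in control and 1.96, 1.66 and 1.92 after LPS. The log2 fold change after LPS was -0.35 ± 0.24 (adjusted p = 0.308), with a 95% interval of -0.84 to 0.14. It shares 9 bases with Med12l on the opposite strand, and whether counting used strand is not given in the sources used here.

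Adora2a (ENSMUSG00000020178.6, chr10:75316877-75334784, plus strand) and Adora2b (ENSMUSG00000018500.2, chr11:62248984-62266453, plus strand) encode adenosine receptors that raise cyclic AMP. Adora2a held 10, 9 and 13 counts in the control libraries (0.549, 0.383 and 0.694 CPM) and 125, 163 and 156 counts after LPS (6.79, 7.96 and 7.29 CPM). All LPS libraries lay far above all others, and the log2 fold change was 3.78 ± 0.26 (adjusted p = 1.07e-14), a 13.7-fold rise. With (GT)6 SWCNT it was 1.03, 0.688 and 1.05 CPM and with COOH SWCNT 1.02, 0.751 and 0.608. Both groups overlapped control. Their log2 fold changes were 0.78 ± 0.35 (adjusted p = 0.126) and 0.59 ± 0.36 (adjusted p = 0.27). The lowest levels were with DiBASC2, at 5, 8 and 10 counts (0.187, 0.282 and 0.428 CPM), where the log2 fold change was -0.84 ± 0.43 (adjusted p = 0.284).

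Adora2b moved in 5 of the 7 comparisons. Its level was 13.3, 14.8 and 14.5 CPM in control, 46.95, 51.6 and 49.6 after LPS, 19.9, 19.99 and 21.2 with (GT)6 SWCNT and 16.5, 18.9 and 17.96 with COOH SWCNT. These 4 groups did not overlap. The log2 fold change was 1.79 ± 0.07 (adjusted p = 3.08e-22) after LPS, a 3.47-fold rise, 0.51 ± 0.08 (adjusted p = 2.09e-06) with (GT)6 SWCNT and 0.32 ± 0.08 (adjusted p = 0.00268) with COOH SWCNT. The dyes and AAV lay below control, with 12.9, 12.4 and 11.4 CPM for Fura-2, 12, 12.4 and 12.1 for Di-2-ANEPEQ, 10.4, 10.9 and 11.8 for AAV and 8.85, 9.40 and 7.70 for DiBASC2. Of these, DiBASC2 (log2 fold change -0.71 ± 0.08, adjusted p = 2.24e-07) and AAV (log2 fold change -0.37 ± 0.08, adjusted p = 0.00555) were called. Fura-2 (log2 fold change -0.22 ± 0.08, adjusted p = 0.277) and Di-2-ANEPEQ (log2 fold change -0.23 ± 0.08, adjusted p = 0.109) were not. In the order of group means, from LPS down to DiBASC2, Fura-2 and Di-2-ANEPEQ were the neighbours whose libraries overlapped, and the other neighbouring groups in that order did not.

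Entpd1 (ENSMUSG00000048120.16, chr19:40612366-40741602, plus strand) encodes the surface enzyme that turns ATP and ADP into AMP. Its level was 33.4, 34.4 and 35.5 CPM in control and 33.5, 31.5 and 31.9 after LPS, and the groups overlapped. COOH SWCNT gave 37.9, 38.8 and 36.04 CPM and DiBASC2 37.9, 37.4 and 38, both above every control library, with log2 fold changes of 0.13 ± 0.06 (adjusted p = 0.178) and 0.13 ± 0.06 (adjusted p = 0.249) that missed the threshold. Ada (ENSMUSG00000017697.3, chr2:163726584-163750239, minus strand), which deaminates adenosine to inosine, was low at 1.14 to 2.22 CPM over all libraries, and its log2 fold change after LPS was -0.21 ± 0.26 (adjusted p = 0.612). Nt5e (ENSMUSG00000032420.8, chr9:88327197-88372092, plus strand), which turns AMP into adenosine, had 1 count in a single Di-2-ANEPEQ library and 0 in the other libraries. In a library, 3 counts are 0.102 to 0.176 CPM, the level that a count of 0 allows, for counting error only.

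**Figure D2:**
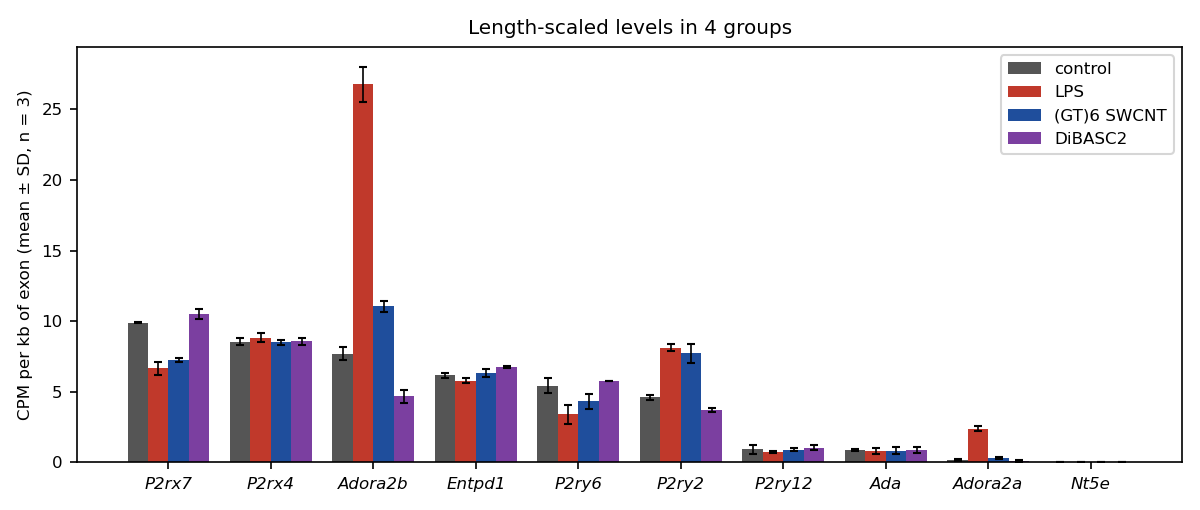
Mean CPM per kilobase of exon of each gene (vertical axis, from 0) in control, LPS, (GT)6 SWCNT and DiBASC2, as bars with SD over 3 libraries. Adora2b is at 7.70 in control and 26.8 after LPS.

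Levels of different genes were compared as CPM per kilobase of exon, taken as the merged length of all annotated exons of a gene. Which transcripts were expressed was not tested, so the order between genes depends on this length. In control, P2rx7 (9.88), P2rx4 (8.55) and Adora2b (7.70) were highest, followed by Entpd1 (6.17), P2ry6 (5.43) and P2ry2 (4.60). P2ry12 (0.923), Ada (0.903) and Adora2a (0.177) were lowest among the genes with counts. After LPS, Adora2b stood at 26.8 CPM per kilobase, above P2rx4 at 8.83, P2ry2 at 8.13 and P2rx7 at 6.65. Adora2a stood at 2.40, below P2ry6 at 3.39.

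**Figure D3:**
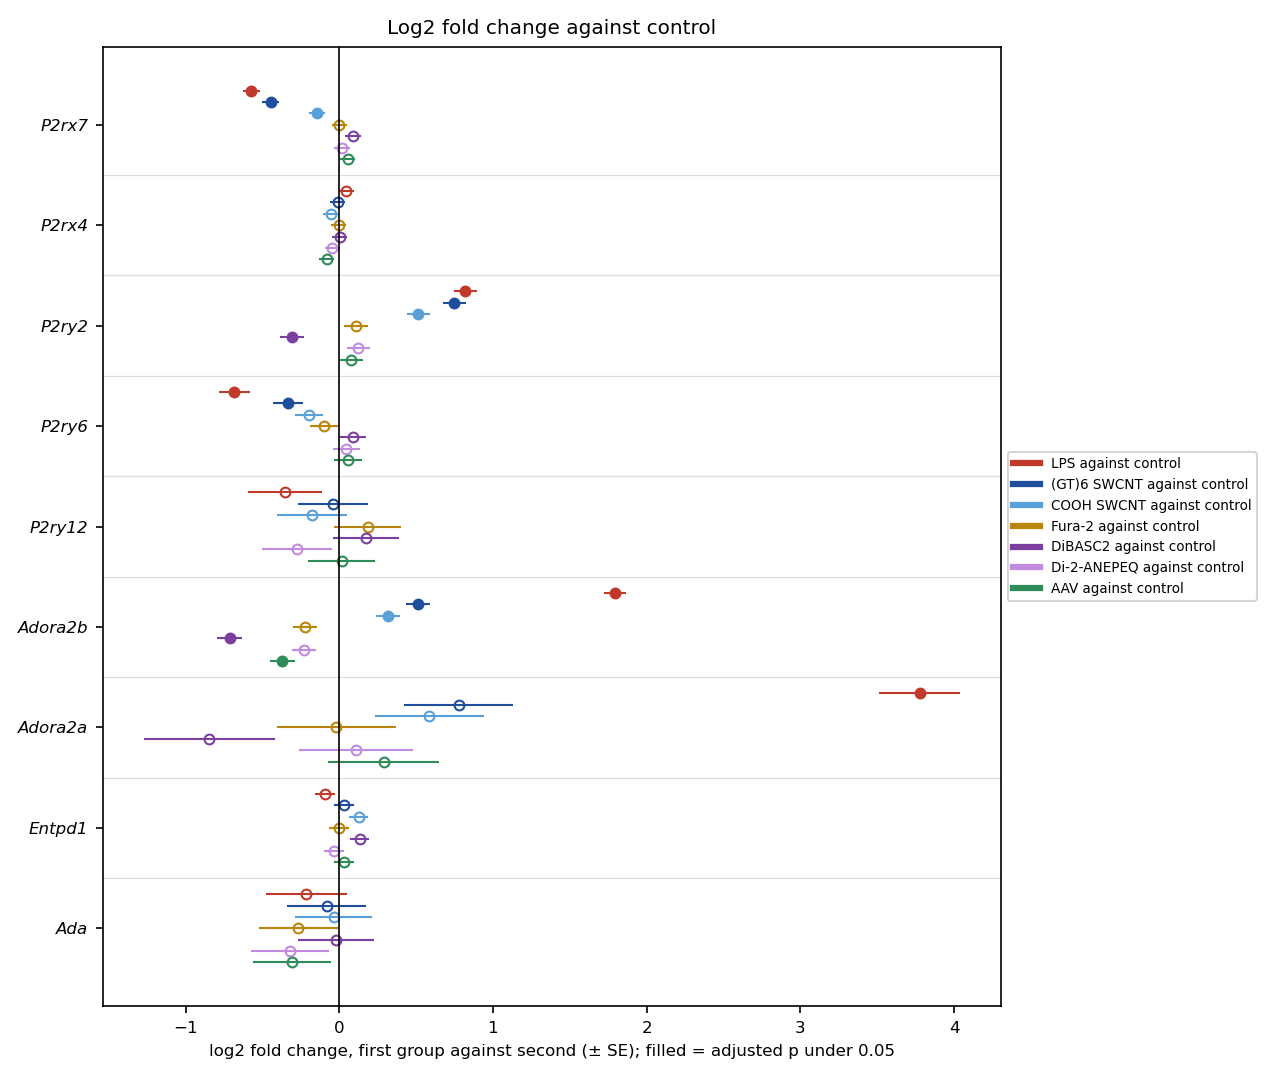
Log2 fold change against control with SE (horizontal axis) of the 9 tested genes for the 7 treatments, filled where the adjusted p is under 0.05. Adora2b is filled for 5 treatments.

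The nanotubes were compared directly with LPS and with each other. Against LPS, (GT)6 SWCNT left Adora2a and Adora2b lower and P2ry6 higher, 3 of 9, where 21.6% of all genes were called. The log2 differences were -3.0 ± 0.23 (adjusted p = 4.62e-13) for Adora2a, -1.28 ± 0.07 (adjusted p = 3.32e-18) for Adora2b and 0.35 ± 0.10 (adjusted p = 0.0121) for P2ry6. The P2ry6 call was lost without (GT)6 SWCNT replicate 2 (adjusted p = 0.148), LPS replicate 1 (0.0676) or LPS replicate 3 (0.124), and in a fit of the 2 groups alone (0.0553). For P2ry2 the difference was -0.07 ± 0.07 (adjusted p = 0.532), with a 95% interval of -0.21 to 0.07, and for P2rx7 it was 0.13 ± 0.06 (adjusted p = 0.106), interval 0.01 to 0.24. The P2rx7 difference was called with upper-quartile scaling (adjusted p = 0.0371) and without LPS replicate 1 (0.0237).

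COOH SWCNT differed from LPS in 6 of 9 genes, where 37.8% of all genes were called. Adora2a (log2 fold change -3.19 ± 0.24, adjusted p = 7.8e-14), Adora2b (log2 fold change -1.48 ± 0.07, adjusted p = 4.03e-20) and P2ry2 (log2 fold change -0.31 ± 0.07, adjusted p = 0.000478) were lower than after LPS. P2ry6 (log2 fold change 0.49 ± 0.10, adjusted p = 0.000167), P2rx7 (log2 fold change 0.43 ± 0.05, adjusted p = 4.13e-08) and Entpd1 (log2 fold change 0.22 ± 0.06, adjusted p = 0.00696) were higher. P2rx4 was not called (log2 fold change -0.10 ± 0.05, adjusted p = 0.0996), but was called lower with length and GC trends removed (0.00974) and without COOH SWCNT replicate 3 (0.0395). Between the nanotubes 3 of 9 were called, beside 21.4% of all genes. P2rx7 was lower with (GT)6 SWCNT than with COOH SWCNT, at a log2 difference of -0.30 ± 0.05 (adjusted p = 6.42e-05), and P2ry2 was higher at 0.24 ± 0.07 (adjusted p = 0.0119). The P2ry2 libraries of the nanotubes overlapped, and the call was lost without COOH SWCNT replicate 3 (adjusted p = 0.0938) or (GT)6 SWCNT replicate 1 (0.146). Adora2b was higher at 0.20 ± 0.07 (adjusted p = 0.0484), a call lost in 5 of 6 fits that left out a library. This call was also lost with length and GC trends removed (0.257), no low-count filter (0.113), upper-quartile scaling (0.0815) or a fit of the 2 groups alone (0.0587).

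The voltage dyes also differed. DiBASC2 was lower than Di-2-ANEPEQ for P2ry2 (log2 fold change -0.43 ± 0.08, adjusted p = 0.000165) and Adora2b (log2 fold change -0.48 ± 0.08, adjusted p = 0.000128), 2 of 9, where 8.95% of all genes were called and 5.48% were called lower. In both genes every DiBASC2 library lay below every Di-2-ANEPEQ library. Entpd1 was not called (log2 fold change 0.17 ± 0.06, adjusted p = 0.0877), but was called higher with DiBASC2 under upper-quartile scaling (0.0374), with length and GC trends removed (0.0385) and without Di-2-ANEPEQ replicate 2 (0.0136). Doses of the dyes are not in the labels, so these values compare the samples as applied.

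**Figure D4:**
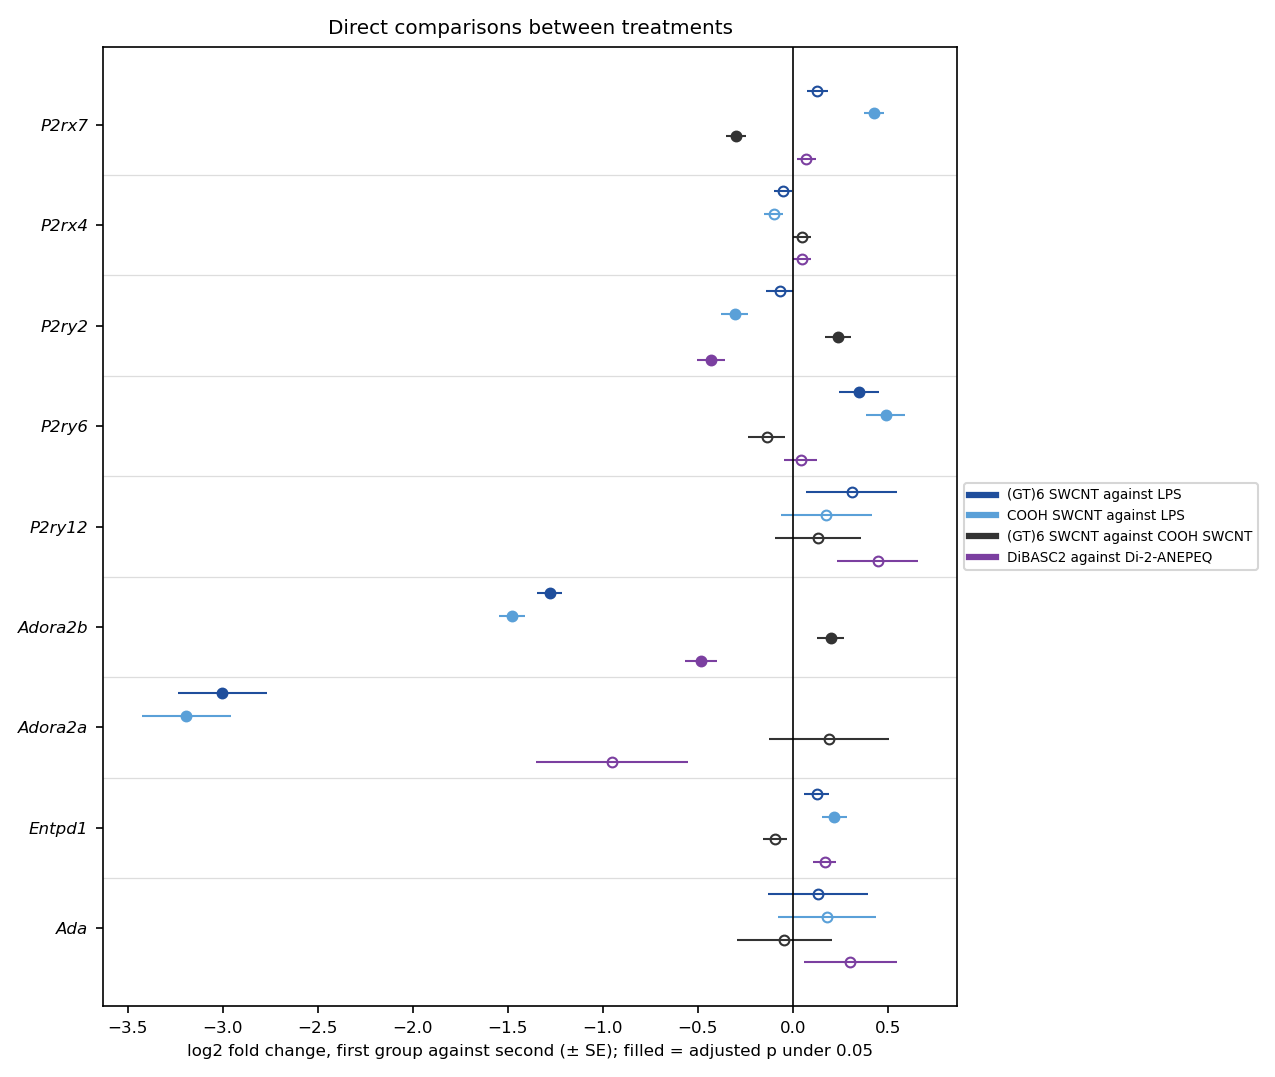
Log2 difference with SE (horizontal axis) of the 9 tested genes in the 4 direct comparisons, first group against second, filled where the adjusted p is under 0.05. Adora2a and Adora2b lie far to the left for both nanotubes against LPS.

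A list of 64 other genes of the pathway was read from the same fit, of which 63 were found in the table and 37 were tested. After LPS 15 of the 37 were called (40.5%, beside 28.3% of all genes), 7 higher and 8 lower, with a median log2 fold change of -0.04 against -0.01 over all tested genes. With (GT)6 SWCNT 11 were called, 4 higher and 7 lower, which is 29.7% beside 20.4% of all genes. With COOH SWCNT 8 were called, 5 higher and 3 lower, and this 21.6% is near the 20.0% of all genes. DiBASC2, Di-2-ANEPEQ and AAV each had 2 called, or 5.41%, all lower. Of all genes 5.47%, 3.08% and 5.00% were called in these comparisons, and 3.64%, 2.39% and 3.16% were called lower, so the counts for DiBASC2 and AAV are near the background. Fura-2 had none called by edgeR, with 5 at an unadjusted p under 0.05 and 1 called by DESeq2. In (GT)6 SWCNT and COOH SWCNT the pathway medians were -0.07 and -0.02, against -0.017 and -0.0016 over all tested genes. In all, 23 of 37 were called in at least 1 treatment, as were 46.6% of all genes, and the 12 with the widest changes are named. The list was chosen with earlier results of these data known.

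Among the listed receptors, P2ry10b, named for its likeness to P2Y receptors and listed with them, stood out with (GT)6 SWCNT. Whether it responds to nucleotides was not tested. Its level was 21.2, 18.7 and 20.8 CPM in control, 51.5, 55.4 and 51.9 with (GT)6 SWCNT, 25.3, 25.5 and 27.4 with COOH SWCNT and 23.7, 26.3 and 22.3 after LPS. Every (GT)6 SWCNT library lay above every library of those 3 groups. The log2 fold change was 1.39 ± 0.07 (adjusted p = 1.63e-17) with (GT)6 SWCNT and 0.37 ± 0.08 (adjusted p = 0.000657) with COOH SWCNT, and (GT)6 SWCNT exceeded LPS by 1.14 ± 0.07 (adjusted p = 1.76e-15) and COOH SWCNT by 1.02 ± 0.07 (adjusted p = 1.03e-12). After LPS it was 0.26 ± 0.08 (adjusted p = 0.0146), a call lost without control replicate 2 (0.104) or LPS replicate 2 (0.12), and with length and GC trends removed (0.0851). It fell with Di-2-ANEPEQ (log2 fold change -0.52 ± 0.08, adjusted p = 0.000231) and DiBASC2 (log2 fold change -0.37 ± 0.08, adjusted p = 0.00439), the latter call lost without DiBASC2 replicate 3 (0.0507). P2ry10b was also lower with Fura-2 (log2 fold change -0.31 ± 0.08, adjusted p = 0.0898) and AAV (log2 fold change -0.25 ± 0.08, adjusted p = 0.0643), without a call. Every library of both voltage dyes, Fura-2 and AAV lay below every control library for P2ry10b, so the lower level was not particular to the voltage dyes. Its close relative P2ry10 did not pass the filter, and how reads matching both were assigned is not given in the sources used here.

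P2ry1, an ADP receptor, went from 12.3, 13.5 and 12.4 CPM in control to 5.05, 6.25 and 5.47 after LPS, where it fell (log2 fold change -1.19 ± 0.10, adjusted p = 2.67e-12), and it also fell with (GT)6 SWCNT (log2 fold change -0.46 ± 0.09, adjusted p = 0.000179). P2ry13, another ADP receptor, fell after LPS (log2 fold change -0.44 ± 0.13, adjusted p = 0.00982) and with (GT)6 SWCNT (log2 fold change -0.46 ± 0.13, adjusted p = 0.00866). Its LPS call was lost without control replicate 3 (0.0681) or LPS replicate 3 (0.0685), and its (GT)6 SWCNT call without control replicate 3 (0.076) or (GT)6 SWCNT replicate 3 (0.0511). P2rx1, an ATP-gated channel, was 2.12 ± 0.494 CPM after LPS against 1.14 ± 0.152 (SD, n = 3 each) in control. Its log2 fold change was 0.88 ± 0.26 (adjusted p = 0.00905), a call lost without LPS replicate 2 (0.0649).

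Pde4b, a phosphodiesterase that breaks down cyclic AMP, had the widest change of the list. Its level was 35, 34.2 and 38.4 CPM in control and 158, 143 and 152 after LPS, a log2 fold change of 2.07 ± 0.06 (adjusted p = 1.07e-26). It also rose with COOH SWCNT (log2 fold change 0.30 ± 0.06, adjusted p = 0.000508) and fell with DiBASC2 (log2 fold change -0.56 ± 0.07, adjusted p = 2.25e-07). Ampd3, an AMP deaminase, was 51.4 ± 1.53 CPM after LPS against 20.8 ± 1.56 (SD, n = 3 each) in control. It rose after LPS (log2 fold change 1.30 ± 0.08, adjusted p = 2.74e-16) and with (GT)6 SWCNT (log2 fold change 0.39 ± 0.08, adjusted p = 0.000524).

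Slc29a3, an intracellular nucleoside transporter, fell after LPS (log2 fold change -0.81 ± 0.08, adjusted p = 2.48e-10) and with (GT)6 SWCNT (log2 fold change -0.36 ± 0.08, adjusted p = 0.000591). Slc28a2, a sodium-dependent nucleoside transporter, rose after LPS (log2 fold change 0.77 ± 0.25, adjusted p = 0.0184), a call lost without control replicate 1 (0.0691), control replicate 2 (0.0699) or LPS replicate 2 (0.0881). Lrrc8a, a subunit of the volume-regulated anion channel, rose with (GT)6 SWCNT (log2 fold change 0.68 ± 0.12, adjusted p = 2.19e-05) and with COOH SWCNT (log2 fold change 0.33 ± 0.12, adjusted p = 0.0454), the latter call lost in 4 of 6 fits that left out a library. Entpd7, an intracellular nucleotidase, fell after LPS (log2 fold change -0.33 ± 0.08, adjusted p = 0.00103) and with (GT)6 SWCNT (log2 fold change -0.28 ± 0.08, adjusted p = 0.00816), the latter lost without control replicate 2 (0.0936) or (GT)6 SWCNT replicate 3 (0.0781). Panx1, an ATP release channel, was called lower after LPS (log2 fold change -0.38 ± 0.14, adjusted p = 0.0433) and Adal, a deaminase, with (GT)6 SWCNT (log2 fold change -0.35 ± 0.12, adjusted p = 0.0312), and both calls were lost in 5 of 6 fits that left out a library and in DESeq2's Wald test (0.0651 and 0.0508).

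**Figure D5:**
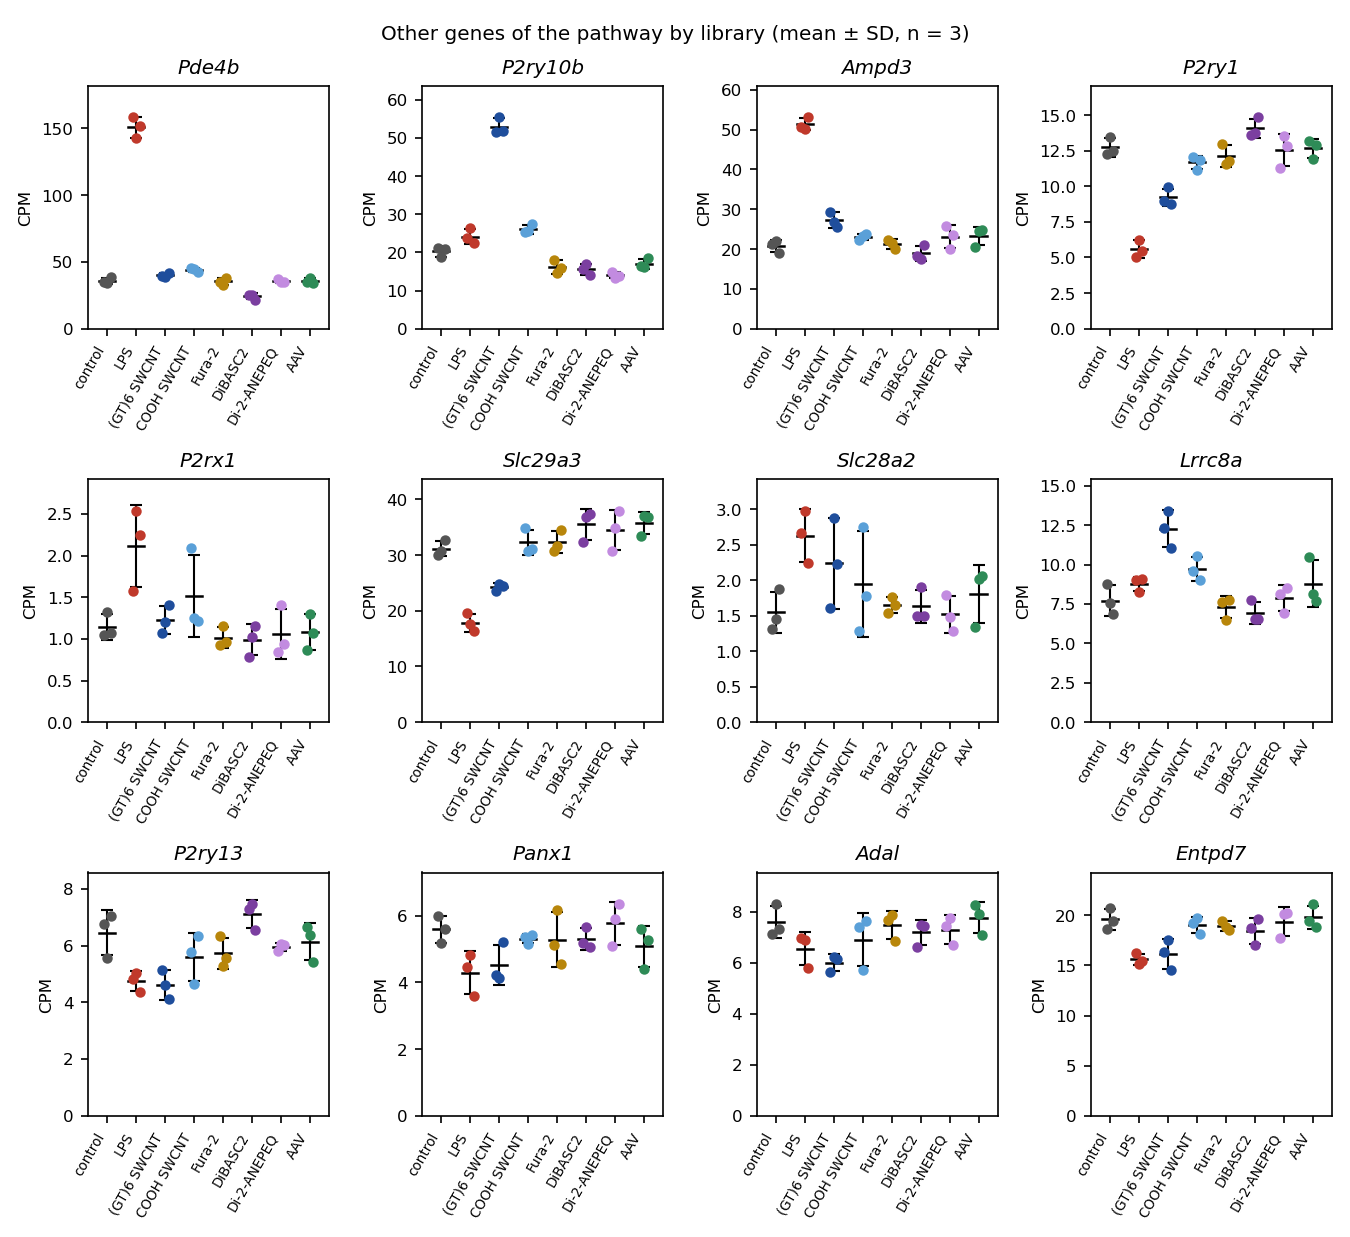
CPM (vertical axes, from 0) of the 12 named genes of the wider pathway in each library of the 8 groups, with mean and SD. Pde4b is high in the LPS libraries and P2ry10b in the (GT)6 SWCNT libraries.

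The likeness rule took Pearson r over the 8 group means of log2(CPM + 0.5). It compared 1553 genes with a mean of at least 5 CPM and a range of at least 0.5 on that scale. Adora2a lay at 0.299 to 0.923 CPM in the groups other than LPS, so the added 0.5 narrows its range. The genes most like Adora2a were Tnfsf9 (r = 0.998), Nfkbia (0.997), Icam1 (0.997), Sdc4 (0.996) and Sod2 (0.995). Those most like Adora2b were Fbxo34 (r = 0.992), Lrp12 (0.991), Ehd1 (0.9896), Gch1 (0.9895) and Slc11a2 (0.989). All 8 means come from the same libraries, and LPS lies apart from the other groups for both receptors.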

How the data were processed

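RNA of 24 SIM-A9 libraries was sequenced. The authors deposited raw read counts per gene. STAR 2.5.4b and build GRCm38.p6 are named, with no role, in the submitters' processing notes. The counting tool, strand setting and annotation are not given in the sources used here. Symbols and positions came from GENCODE M21 (GRCm38) and matched 54809 of 54838 identifiers. All columns were matched to samples by name. Titles gave each library's group and replicate number.

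In R 4.3.3, edgeR 4.0.16 fitted 1 quasi-likelihood model, with group means as its terms, to the 24 libraries together, after filterByExpr (13116 genes kept) and TMM scaling. P-values were two-sided and adjusted by Benjamini-Hochberg over all genes within each of 11 comparisons. A DESeq2 1.42.0 Wald test, other scalings and filters, a replicate block, length and GC trends, fits of the groups compared alone and leaving out each library were alternatives. The 24 replicate pairs differed by more than sampling noise (chi-square per degree of freedom 2.46 to 19.4). All 10 members were described. Pathway genes were named if called against control, widest changes first, at most 12. For the members with the widest range, the 5 genes of highest Pearson r were named. The members and lists were chosen with earlier results of these data known. Libraries with the same replicate number showed no clear shared shift: of 21 same-number pairs with control, 0 had a correlation of deviations over 0.1. The labels do not say how replicates were made, so this cannot exclude pairing.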

Additional observations from a re-analysis of the deposited data

How the results depend on the processing

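The alternative fits gave 1364 log2 fold changes of members, many of them read from the same fit. Of these values, 1264 kept their direction and their side of the threshold, 29 lost a call and 7 gained one. Further, 0 called values reversed, and 64 changed sign while called under neither setting. The replicate block, which rests on shared numbers alone, gave 3683 genes called after LPS against 3717. It gave 2631 against 2680 with (GT)6 SWCNT and 22 against 33 with Fura-2, and lost Adora2b between the nanotubes (adjusted p = 0.0578, edgeR). Counts of all genes called moved as follows. Fura-2 (33) gave 188 with no low-count filter, 56 with length and GC trends removed, 80 in a fit of the 2 groups alone and 86 with the DESeq2 Wald test, and its pathway genes (0) gave 2 and 1 with no filter and DESeq2. Di-2-ANEPEQ (404) gave 814 and the AAV pathway genes (2) gave 4 in a fit of the 2 groups alone. Leaving out 1 library gave 0 to 106 genes for Fura-2 and 0 to 1 of its pathway genes, 333 to 574 for DiBASC2 (717) with 1 to 2 members and 1 to 2 pathway genes, 120 to 418 for Di-2-ANEPEQ with 1 to 2 pathway genes, 157 to 769 for AAV (656) with 0 to 2 pathway genes, and 610 to 1284 for DiBASC2 against Di-2-ANEPEQ (1174) with 1 to 4 pathway genes. It gave 5 to 9 pathway genes for COOH SWCNT (8) and 1 to 3 members for (GT)6 SWCNT against COOH SWCNT (3). The causes were not tested. Depth limits Adora2a, which held 5 to 13 counts in the control and DiBASC2 libraries, and Nt5e.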
